A study of Mus musculus with 8 samples.

Results

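Genes known from basophils, mast cells and eosinophils were followed in B cells of mouse bone marrow by RNA-seq. There were 9 of them, Prg2, Epx, Ccr3, Mcpt8, Prss34, Cpa3, Fcer1a, Ms4a2 and Gata2. They were taken from the deposited table of read counts by their Ensembl identifiers, 1 for each, out of 54532 identifiers in the table. The libraries were 3 from sham-operated mice (Sham) and 3 from ovariectomized mice (OVX), where removal of the ovaries serves as a model of the estrogen deficiency of menopause. In both groups the B cells had been isolated from bone marrow by magnetic beads, and no allele or agent is named for these samples. The strain and age of the mice are not stated for these libraries, and the labels number the replicates without saying that each came from a separate mouse, so a p-value measures only the spread between these libraries. Between 23838775 and 33136701 reads were counted per library. B cell markers were abundant, as all 12 that were examined passed the filter on low counts and together held between 10518 and 12192 RPM (reads for every 1000000 reads of the library).

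Eosinophils, basophils and mast cells are granule-bearing cells of the myeloid branch of blood formation. Eosinophils and basophils mature in the bone marrow, whereas mast cell precursors leave it and mature in tissues. Basophils and mast cells carry the high-affinity receptor for immunoglobulin E on their surface and release histamine and proteases when antigen crosslinks it. The transcription factors GATA1 and GATA2 act in the formation of these lineages. None of these cells is a B cell. In RNA of a bulk preparation, fewer cells of a type and less RNA per cell cannot be told apart.

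The 9 genes were lower on average in OVX than in Sham, but none was called, and for each of the 9 the OVX and Sham libraries overlapped. To be called, a gene needed a fold change of at least 1.6 together with an adjusted p below 0.05 (quasi-likelihood test of edgeR, adjusted by Benjamini and Hochberg over all genes). The percentage of the 15305 tested genes that was called was 0, and the lowest adjusted p was 0.811 in that edgeR test. The 9 genes all passed the filter. Of them, 9 had a log2 fold change below 0, against 51.8% of all genes tested, and their median was -1.19, against -0.01 for all genes. Cpa3 and Gata2 had an unadjusted p under 0.05, a criterion that 2.28% of all genes tested met on the side of lower values in OVX. Limma-voom and DESeq2 also called no gene, with 594 and 755 genes at an unadjusted p under 0.05, where edgeR gave 574. No member had every OVX library below every Sham library, a pattern found in 4.12% of all genes tested.

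Within Sham, the highest and the lowest library lay further apart than the means of the groups for each of the 9 genes. Sham replicate 3 held the highest level of 8 of the 9 genes, against 18.3% of all genes tested, while OVX replicate 2 held the lowest level of 4 and OVX replicate 3 that of 3. OVX replicate 1 lay above Sham replicate 1 for 8 of the 9 genes. Ccr3 departed from this pattern. It was highest in OVX replicate 3 and Sham replicate 2, a pair of libraries that held the 2 highest levels for 8.67% of all genes tested, and lowest in Sham replicate 3.

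**Figure D1:**
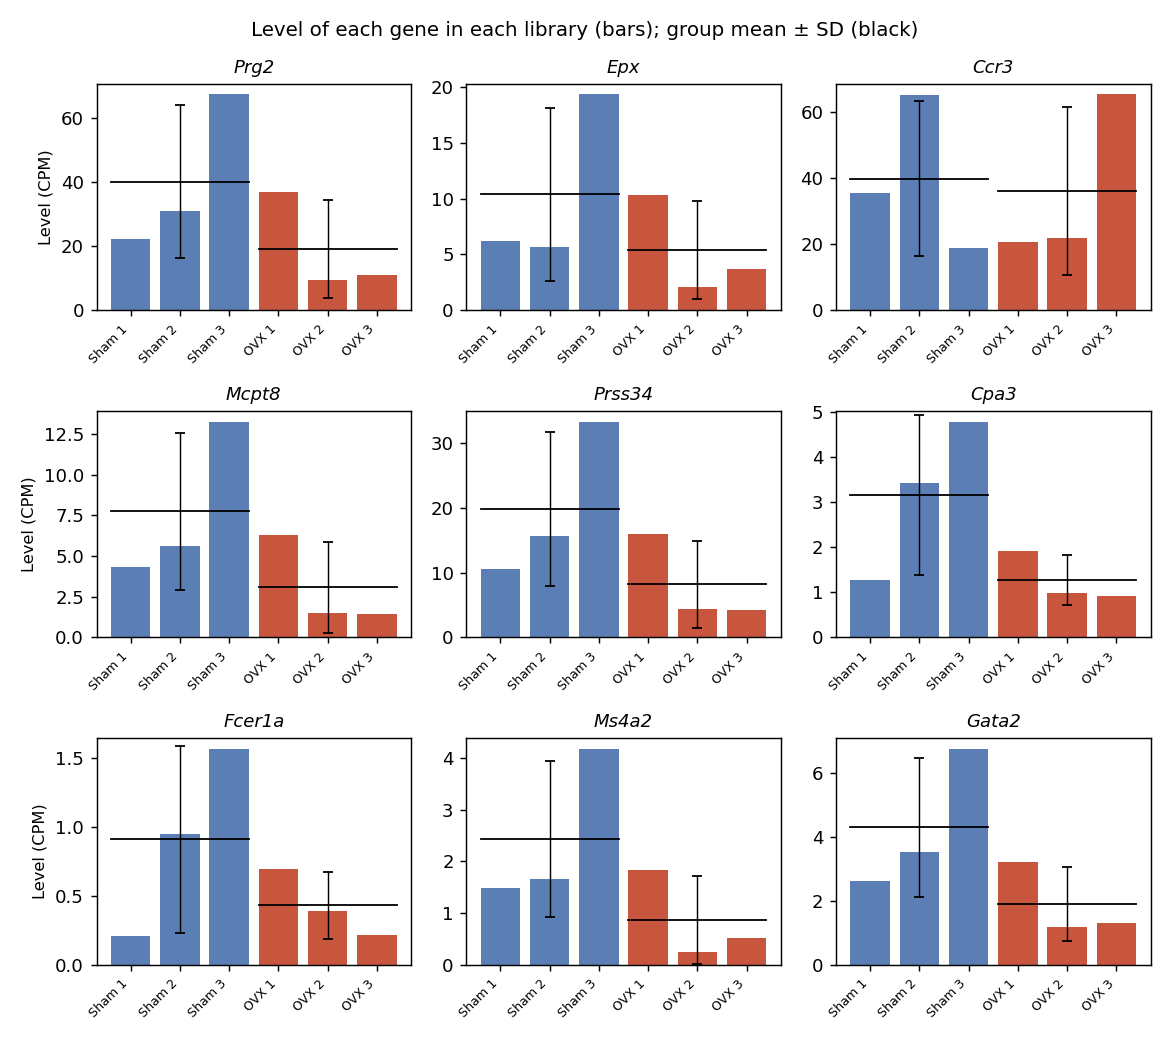
Level of each of the 9 genes in CPM (reads scaled to 1000000 per library with TMM factors), on linear axes that start at 0. Bars are the 3 Sham (blue) and 3 OVX (red) libraries, and black lines with bars are the group mean ± SD (n = 3). Sham replicate 3 has the tallest bar for 8 genes, while Ccr3 is highest in OVX replicate 3 and Sham replicate 2.

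Prg2 and Epx encode proteins of the eosinophil granule. Prg2, the gene of major basic protein, is listed as ENSMUSG00000027073 and lies at chr2:84980461-84983632 (GRCm38.p6). Taking replicates 1 to 3 in order, here and for the genes that follow, 525, 875 and 1671 of its reads were found in Sham and 902, 271 and 361 in OVX. OVX replicate 1 was thus higher than 2 of the 3 Sham libraries. In CPM, which are reads scaled to 1000000 per library with edgeR's TMM factors, Prg2 averaged 40.1 ± 23.9 in the Sham libraries and 19.1 ± 15.3 in the OVX libraries (mean ± SD, n = 3). This was a log2 fold change, OVX over Sham, of -1.08 (standard error, SE, 0.60, 95% interval -2.50 to 0.34, adjusted p = 0.811 by edgeR), and the two-sided exact permutation test gave p = 0.3, where 3 libraries against 3 allow no value below 0.1. Leaving out Sham replicate 3 gave -0.49, and leaving out OVX replicate 1 gave -1.96. Prg3, a paralog of Prg2 that lies 4564 bases away, had 224, 126 and 232 reads in Sham and 218, 288 and 237 in OVX. Prg3 therefore did not share the high value of Prg2 in Sham replicate 3, and its level was highest in OVX replicate 2. How reads that fit both paralogs were assigned is not given in the sources used here.

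Epx encodes eosinophil peroxidase, an enzyme that forms hypohalous acids from hydrogen peroxide (ENSMUSG00000052234, chr11:87863997-87875536). It had 146, 160 and 481 reads in Sham and 254, 59 and 123 in OVX. Sham replicate 3 again stood highest and OVX replicate 1 second. Epx averaged 10.4 ± 7.77 CPM in Sham against 5.38 ± 4.37 in OVX (mean ± SD, n = 3), a log2 fold change of -0.95 (SE 0.69, 95% interval -2.56 to 0.65, adjusted p = 0.811 by edgeR). Most of this difference rested on 1 library, as leaving out Sham replicate 3 gave a log2 fold change of -0.15 and leaving out OVX replicate 1 gave -1.83.

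Ccr3 encodes the receptor through which eotaxins attract eosinophils (ENSMUSG00000035448, chr9:124017825-124031692). It had 844, 1850 and 467 reads in Sham, and 507, 622 and 2158 in OVX. A single library of each group was high, and the other 4 held between 467 and 844 reads. The group means were close, at 39.9 ± 23.5 CPM in Sham against 36.0 ± 25.4 in OVX (mean ± SD, n = 3). The log2 fold change was -0.15 (SE 0.56, 95% interval -1.47 to 1.18, adjusted p = 0.953 by edgeR), an interval that leaves room for differences of more than 1 log2 unit in either direction. Its sign turned to 0.41 without Sham replicate 2, to 0.13 without OVX replicate 1 and to 0.11 without OVX replicate 2, and it was -0.90 without OVX replicate 3.

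Mcpt8 and Prss34 encode serine proteases of the basophil granule. Prss34 (ENSMUSG00000056399, chr17:25298394-25300168) had 249, 443 and 827 reads in Sham and 392, 123 and 138 in OVX. Mcpt8 (ENSMUSG00000022157, chr14:56082163-56085499), which lies 14386 bases from the neutrophil protease gene Ctsg, had 103, 160 and 330 reads in Sham and 154, 43 and 47 in OVX. The 6 libraries had the same order by level for both genes, with Sham replicate 3 first, OVX replicate 1 second and OVX replicates 2 and 3 last. Prss34 averaged 19.8 ± 11.9 CPM in Sham against 8.16 ± 6.76 in OVX, and Mcpt8 averaged 7.75 ± 4.83 against 3.07 ± 2.77 (mean ± SD, n = 3). The log2 fold changes were -1.29 (SE 0.63, 95% interval -2.76 to 0.19) and -1.35 (SE 0.68, 95% interval -2.93 to 0.24), both with an adjusted p of 0.811 by edgeR. Without Sham replicate 3 they were -0.69 and -0.72, and without OVX replicate 1 they were -2.21 and -2.39.

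Cpa3, Fcer1a and Ms4a2 belong to basophils and mast cells alike. Cpa3 encodes carboxypeptidase A3, a granule exopeptidase (ENSMUSG00000001865, chr3:20215616-20242209), and had 30, 97 and 119 reads in Sham and 47, 28 and 30 in OVX. It averaged 3.16 ± 1.77 CPM in Sham against 1.27 ± 0.559 in OVX (mean ± SD, n = 3). The log2 fold change was -1.32 (SE 0.52, 95% interval -2.55 to -0.09, unadjusted p = 0.0385 and adjusted p = 0.811 by edgeR), and leaving out Sham replicate 3 gave -0.91 and leaving out OVX replicate 1 gave -1.73. The lowest Sham library, replicate 1, lay below OVX replicate 1, and the two-sided exact permutation test gave p = 0.2, the lowest value among the 9 genes, which Gata2 shared.

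Fcer1a and Ms4a2 encode the alpha and beta chains of the high-affinity immunoglobulin E receptor, of which the alpha chain binds the antibody. Fcer1a (ENSMUSG00000005339, chr1:173221269-173227232) had the fewest reads of the 9 genes, with 5, 27 and 39 in Sham and 17, 11 and 7 in OVX. Ms4a2 (ENSMUSG00000024680, chr19:11615517-11623790) had 35, 47 and 104 reads in Sham and 45, 7 and 17 in OVX. Ms4a2 spread the most of the 9 genes, with a level 16.9-fold higher in Sham replicate 3 than in OVX replicate 2, although only 7 reads stand behind the lower value. The log2 fold change was -1.11 for Fcer1a (SE 0.72, 95% interval -2.81 to 0.59) and -1.52 for Ms4a2 (SE 0.74, 95% interval -3.25 to 0.22), both with an adjusted p of 0.811 by edgeR. They were -0.49 and -0.89 without Sham replicate 3, and -1.60 and -2.65 without OVX replicate 1. The gamma chain of the receptor, Fcer1g, is shared with other Fc receptors and had 868, 2213 and 1669 reads in Sham and 896, 596 and 1682 in OVX. Its ratio to Fcer1a varied 5.61-fold over the libraries, beyond counting error, from 42.8 in Sham replicate 3 to 240 in OVX replicate 3 (exact 95% intervals 31.2 to 60.4 and 116 to 599).

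Gata2, a zinc finger transcription factor of blood stem and progenitor cells, basophils and mast cells (ENSMUSG00000015053, chr6:88193891-88207032), had 62, 100 and 168 reads in Sham and 79, 33 and 43 in OVX. The same libraries were highest and lowest as for Prg2. Gata2 averaged 4.30 ± 2.18 CPM in Sham against 1.89 ± 1.15 in OVX (mean ± SD, n = 3), a log2 fold change of -1.19 (SE 0.51, 95% interval -2.38 to -0.0015, unadjusted p = 0.0498 and adjusted p = 0.811 by edgeR). Without Sham replicate 3 it was -0.72, with an unadjusted p of 0.193 by edgeR, and without OVX replicate 1 it was -1.79.

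**Figure D2:**
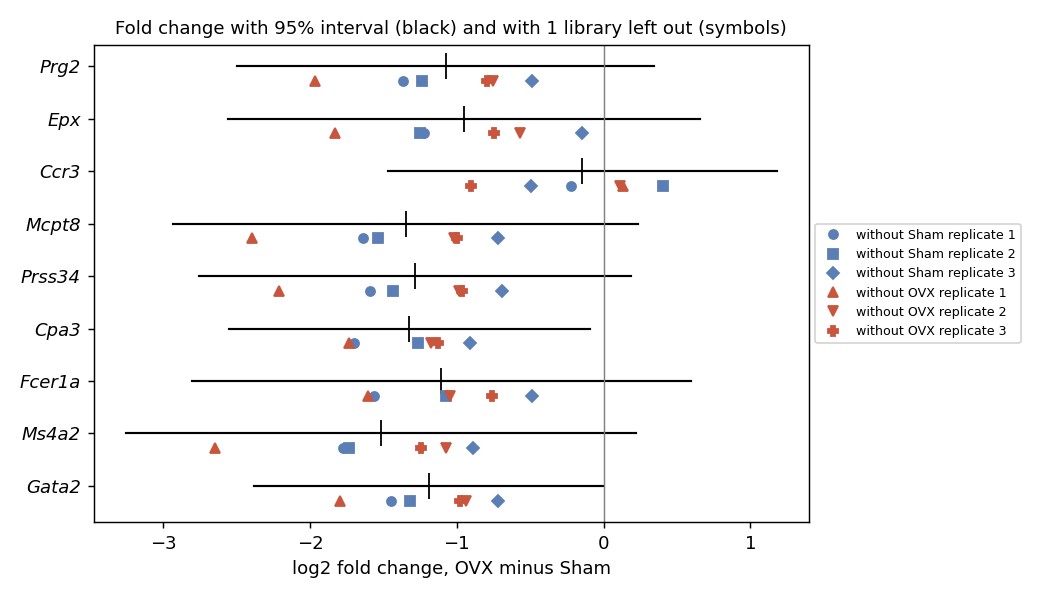
Log2 fold change of OVX against Sham for the 9 genes. Black bars are the edgeR estimate with its 95% interval from all 6 libraries, and symbols are the estimates with 1 library left out. For 8 genes every symbol lies below 0 and the estimate without Sham replicate 3 (diamond) is nearest to it, while the symbols of Ccr3 lie on both sides of 0.

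GATA factors bind the core letters GATA. The promoters of the members were therefore searched on both strands for the 6 letters AGATAA. Also searched were the 3 spellings made from them with T in first place, G in last place or both. The searched stretch ran from 250 bases before to 50 bases after the transcript start in RefSeq (GRCm38.p6). A promoter was given for 8 of the 9 genes. Of these 8, 5 held at least 1 match, and among all 32851 RefSeq promoters of the same length 29.8% did, as did 19.7% of the 13492 promoters of the genes tested here. The 5 are shown because they carry these letters near the start, in 80 bases on the strand of the gene with the matches in capitals.
Ccr3, chr9:124021870-124021949, plus strand: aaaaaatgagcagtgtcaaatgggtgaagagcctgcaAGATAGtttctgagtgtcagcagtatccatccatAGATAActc
Prss34, chr17:25298314-25298393, plus strand: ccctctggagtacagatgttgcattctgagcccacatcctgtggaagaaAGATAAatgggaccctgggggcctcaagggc
Cpa3, chr3:20242185-20242264, minus strand: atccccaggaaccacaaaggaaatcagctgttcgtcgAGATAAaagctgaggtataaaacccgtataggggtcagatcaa
Fcer1a, chr1:173227279-173227358, minus strand: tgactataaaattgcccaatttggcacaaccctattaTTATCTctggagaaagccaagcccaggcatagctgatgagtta
Ms4a2, chr19:11623720-11623799, minus strand: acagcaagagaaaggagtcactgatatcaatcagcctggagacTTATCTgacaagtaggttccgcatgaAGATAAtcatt
The match nearest to the start began 30 bases before it in Ccr3, 31 in Prss34, 46 in Cpa3, 92 in Fcer1a and 11 in Ms4a2. The only start given for Ccr3 lies inside the span of the gene printed above. The bases around the outer end of that span were not searched. Ms4a2 held 3 matches in all, 1 of them outside the stretch shown. Epx, Mcpt8 and the starts listed for Gata2 held none of these letters. Ccr3, the member whose highest level was not in Sham replicate 3, held 2. A match is a description of these letters and not a bound site.

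Some pairs of members kept nearly fixed proportions in all 6 libraries. The ratio of Prss34 to Mcpt8 reads was 2.42, 2.77 and 2.51 in Sham and 2.55, 2.86 and 2.94 in OVX, a range of 1.21-fold with overlapping exact 95% intervals for counting error. The ratio of Prg2, an eosinophil gene, to Prss34, a basophil gene, was 2.11, 1.98 and 2.02 in Sham and 2.30, 2.20 and 2.62 in OVX, a range of 1.32-fold. Both pairs thus kept their proportion while each gene varied several-fold. The proportion of Prg2 to Epx was less steady, from 2.93 in OVX replicate 3 to 5.47 in Sham replicate 2, which was beyond counting error (exact 95% intervals 2.39 to 3.63 and 4.62 to 6.51). Read ratios compare libraries here and not the abundance of one gene with another, since they were not divided by transcript length. The pairs of genes were chosen after their values were seen, and such intervals cover counting error only.

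Ccr3 kept no such proportion to Prg2. Their ratio was 1.61, 2.11 and 0.279 in Sham and 0.562, 2.30 and 5.98 in OVX, a range of 21.4-fold. The ratio of Ccr3 to C1qa, a complement gene of resident macrophages, was 0.346, 0.294 and 0.291 in Sham and 0.371, 0.330 and 0.349 in OVX, a range of 1.28-fold. This small range was still beyond counting error (exact 95% intervals 0.279 to 0.309 in Sham replicate 2 and 0.335 to 0.411 in OVX replicate 1). C1qa itself had 2436, 6302 and 1606 reads in Sham and 1366, 1886 and 6176 in OVX, so both genes were high in the same 2 libraries. The ratio of Ccr3 to Stab2, a scavenger receptor gene of sinusoidal endothelium and some macrophages, lay between 2.37 and 2.74 in the 6 libraries. Stab2 was among the 5 genes nearest to Ccr3 over these same libraries, so its steady ratio is no separate result. The ratio of Ccr3 to Adgre4, an adhesion receptor gene of macrophages and eosinophils, lay between 1.66 and 2.16, which was also beyond counting error.

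**Figure D3:**
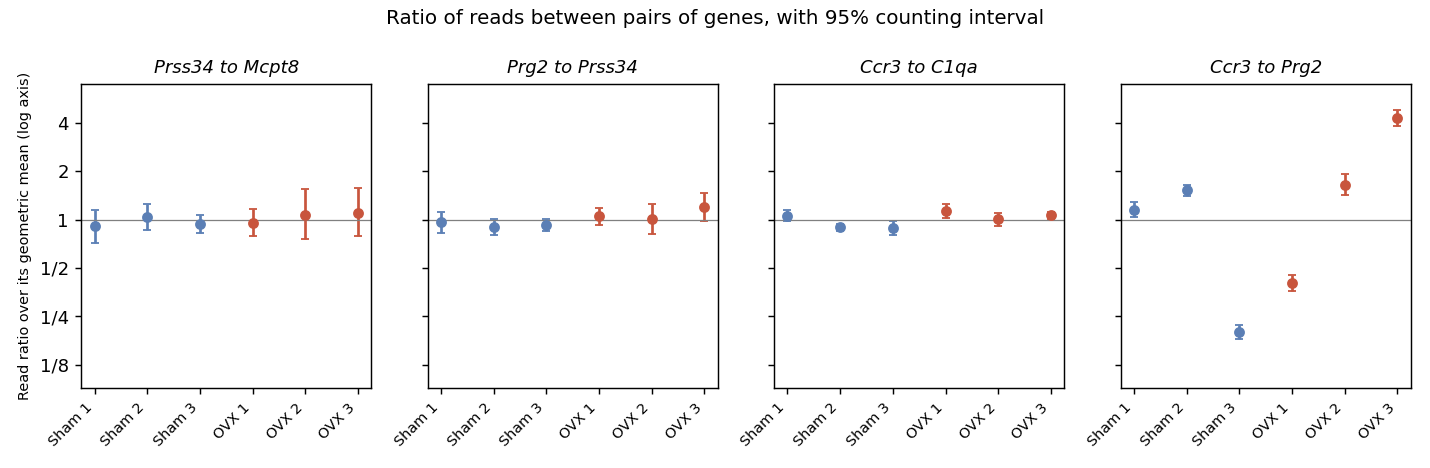
Ratio of the read counts of 2 genes in each library, divided by the geometric mean of that ratio over the 6 libraries, on a log axis. Points are libraries (Sham blue, OVX red) and bars are exact 95% intervals for counting error. The ratios Prss34 to Mcpt8, Prg2 to Prss34 and Ccr3 to C1qa stay near 1, whereas Ccr3 to Prg2 ranges 21.4-fold.

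The make-up of the 9 genes' reads differed from library to library. Ccr3 held 42.2%, 49.2% and 11.1% of them in Sham, and 21.2%, 52.0% and 73.8% in OVX. The exact 95% interval was 10.2% to 12.1% in Sham replicate 3 and 72.2% to 75.4% in OVX replicate 3, so these intervals did not overlap. The shares of the 2 groups overlapped. Summed, the 9 genes held 83.9, 135 and 170 RPM in Sham and 97.7, 41.3 and 88.2 in OVX, with a mean of 130 ± 43.2 in Sham against 75.8 ± 30.2 in OVX (SD, n = 3). Without Sham replicate 3 the mean of Sham was 110. For the 8 genes other than Ccr3, a grouping made after the values were seen, the sum was 48.5, 68.7 and 151 RPM in Sham and 77.1, 19.9 and 23.1 in OVX. The mean of these 8 was 89.3 ± 54.2 in Sham against 40.0 ± 32.1 in OVX (SD, n = 3), and 58.6 in Sham without replicate 3.

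**Figure D4:**
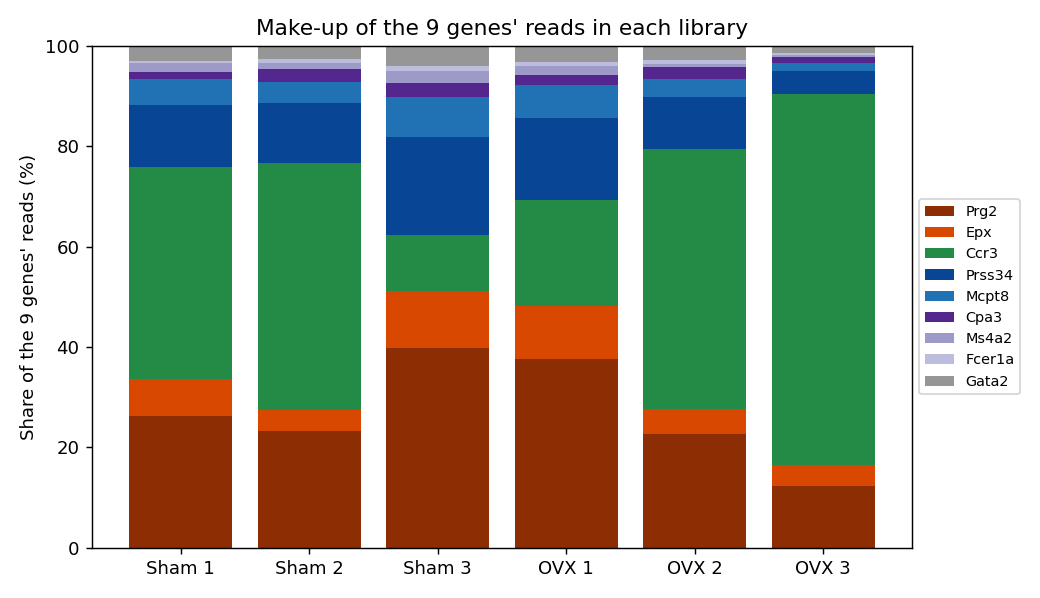
Share of each gene in the summed reads of the 9 genes, in percent, for the 3 Sham and 3 OVX libraries. The share of Ccr3 (green) runs from 11.1% in Sham replicate 3 to 73.8% in OVX replicate 3, and both groups hold libraries with high and low shares.

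Neutrophil markers and some monocyte markers moved with the sum of the 8 members other than Ccr3. The 18 neutrophil genes held 2676, 3718 and 10306 RPM in Sham and 4339, 1164 and 1258 in OVX, and 18 of 18 were highest in Sham replicate 3. The 6 libraries were in the same order by this list as by the sum of the 8 genes other than Ccr3. For every 1000 neutrophil reads, the 8 genes had 18.1, 18.5 and 14.6 reads in Sham and 17.8, 17.1 and 18.4 in OVX, a narrow range beside that of either sum. The lowest value was that of Sham replicate 3, the library with the highest sums. Prg2 and Prss34 gave 1671 and 827 of the 3739 reads of the 8 genes there. Counting error was not computed for the values for every 1000 neutrophil reads. They describe a sum, and the same values were not computed for single genes. Over all libraries Prg2 and Prss34 had 4605 and 2172 reads, against 351 of Cpa3 and 106 of Fcer1a. Fcer1a was lowest in Sham replicate 1, whereas both sums were lowest in OVX replicate 2. Between Sham replicate 3 and OVX replicate 2 the ratio of levels was 4.04 to 16.9 for the 8 genes and 7.15 to 19.2 for the 18 neutrophil genes, and 3.74% of all genes tested had a ratio of at least 4.04. The median log2 fold change of the 18 neutrophil genes was -1.29, and none was called. The 12 monocyte and macrophage genes summed to 914, 1980 and 813 RPM in Sham and 581, 546 and 1521 in OVX. They divided by the libraries in which they were highest. In 8 of the 12, among them C1qa, C1qb, Mrc1 and Vcam1, the 2 highest levels were in the libraries that were highest in Ccr3. The other 4, Ccr2, Ly6c2, F13a1 and Cx3cr1, which mark monocytes, were highest in Sham replicate 3, Ccr2 with 259, 651 and 1395 reads in Sham and 520, 128 and 89 in OVX. The sum of the 12 B cell genes spread 1.16-fold, and single genes of this list spread between 1.11-fold (Pax5) and 2.23-fold (Bank1). The sums of erythroid, megakaryocyte, and T and NK cell genes spread 3.41-fold, 2.73-fold and 3.19-fold. Erythroid genes were 10 lower and 0 higher in OVX, and T and NK cell genes were 9 lower and 1 higher. Megakaryocyte genes went the other way, with 0 lower and 9 higher in OVX and a median log2 fold change of 0.65. None of these 9 was highest in Sham replicate 3, and none was called. The sums of the progenitor, endothelial and plasmacytoid dendritic cell lists spread less, at 1.44-fold, 1.15-fold and 1.49-fold, but each was carried by genes that B cells also express, chiefly Myb, Pecam1 and Spib. Of the 8 plasmacytoid dendritic cell genes 5 were highest in Sham replicate 3. Of these 5, Siglech, Ccr9, Klk1 and Runx2 spread 16.2-fold, 10.6-fold, 34.6-fold and 11.1-fold, and Bst2 spread 1.93-fold. Cox6a2, highest in Sham replicate 1, spread 1.80-fold. Tcf4 and Spib, highest in OVX replicate 2, spread 1.11-fold and 1.66-fold. Among the 10 progenitor genes, 3 were highest in Sham replicate 3, with Cd34 spreading 10.3-fold. Siglech, Ccr9, Klk1, Cox6a2, Cd34, Ccr2, Ly6c2, Cx3cr1 and C1qa are named after their values were seen. The part of any of these cells' transcripts in the values of the 9 genes was not tested.

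Genes of the mature mast cell were at or near 0. Of 12 further mast cell genes, 5 had no read in any library, namely the protease genes Mcpt1, Mcpt4, Tpsab1 and Tpsg1 and the receptor gene Mrgprb1. A count of 0 allows a level of up to 0.126 RPM in the smallest library and 0.0905 in the largest, taking 3 counts as the limit. The protease genes Mcpt2, Cma1 and Tpsb2 and the receptor gene Mrgprb2 reached 6, 3, 2 and 1 reads in their highest library and did not pass the filter. The 3 genes that passed, 1 lower and 2 higher in OVX and none called, are also expressed by other cells. They were Kit, the receptor of stem cell factor, Slc18a2, a vesicular monoamine transporter, and Rab27b, a GTPase of granule transport. Kit had 342, 309 and 466 reads in Sham and 298, 339 and 459 in OVX and its level spread 1.72-fold over the libraries.

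Of 10 other basophil genes 9 were tested, 6 lower and 3 higher in OVX (median fold change on the log2 scale -0.16), and none was called. Hdc encodes the enzyme that makes histamine. It had 192, 488 and 906 reads in Sham and 408, 111 and 143 in OVX, so that it was highest in Sham replicate 3, as the basophil proteases were, but second highest in Sham replicate 2 where they were second in OVX replicate 1. Its ratio to Prss34 lay between 0.771 in Sham replicate 1 and 1.10 in Sham replicate 2, beyond counting error (exact 95% intervals 0.635 to 0.935 and 0.967 to 1.26). Il3ra, a chain of the interleukin-3 receptor that is also expressed outside basophils, was even, with 17.2 ± 0.477 CPM in Sham against 17.5 ± 0.521 in OVX (mean ± SD, n = 3). Csf1, which encodes a macrophage growth factor, had 12.9 ± 3.95 CPM in Sham against 11.7 ± 1.23 in OVX. In this list 5 genes had their highest level in Sham replicate 3 and 4 did not. The 5 were not alike, as Hdc spread 9.30-fold and Csf1 1.65-fold.

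Of 10 other eosinophil genes 9 were tested, 8 lower and 1 higher in OVX (median fold change on the log2 scale -0.68), and none was called. Ptger3, a prostaglandin E2 receptor gene, had the smallest p of its list. It was counted with 13, 19 and 26 reads in Sham and 6, 6 and 12 in OVX, so that the groups did not overlap, with a log2 fold change of -1.44 (SE 0.43, unadjusted p = 0.0117 and adjusted p = 0.811 by edgeR). Of the 9 genes, 5, namely Ear1, Ear6, Siglecf, Alox15 and Ptger3, were highest in Sham replicate 3. Siglecf, a surface lectin used to recognise eosinophils, had 23, 37 and 62 reads in Sham and 34, 7 and 18 in OVX and is named here after its values were seen. Adgre4 and Ear2 had their 2 highest levels in the same libraries as Ccr3 instead. Adgre4 had 403, 1112 and 281 reads in Sham and 253, 367 and 999 in OVX. Ear2, a ribonuclease gene, had 259, 560 and 323 in Sham and 208, 204 and 507 in OVX. In Sham replicate 3, where Ccr3 was lowest, Ear2 lay above its mean over the libraries, and it was lowest in OVX replicate 2. Il5ra, the interleukin-5 receptor alpha chain, had 17.4 ± 5.95 CPM in Sham against 14.2 ± 2.41 in OVX (mean ± SD, n = 3). The Ear genes are a family of near-identical copies, and their counts are uncertain.

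**Figure D5:**
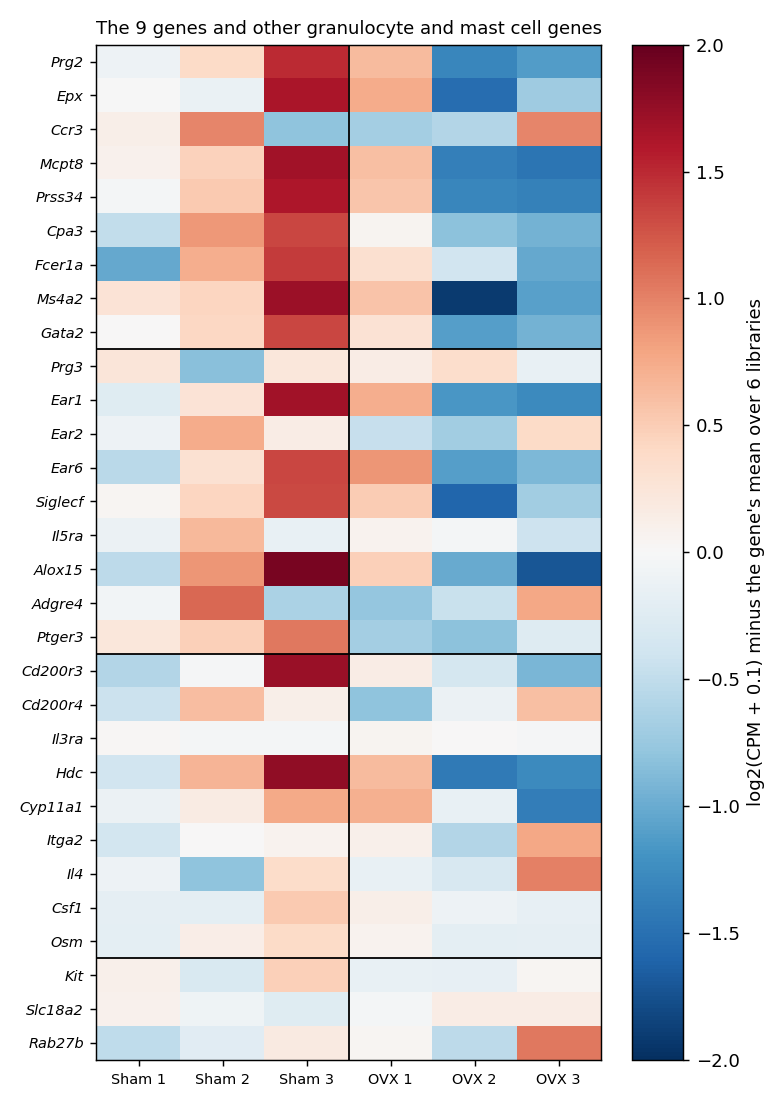
Level of the 9 genes (top block) and of other eosinophil, basophil and mast cell genes with a mean of at least 10 reads (following blocks) in each library, as log2(CPM + 0.1) minus the mean of the gene over the 6 libraries. Red is above and blue below the mean, and values beyond 2 in either direction take the end colour. The Sham replicate 3 column is red for 8 of the 9 genes and for Ear1, Siglecf, Alox15 and Hdc, while Ccr3, Ear2 and Adgre4 are red in Sham replicate 2 and OVX replicate 3. Ear2 is also slightly above its mean in Sham replicate 3.

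The genes around these cells were examined as ligands, receptors, signal proteins and transcription factors. Of 11 cytokine and chemokine genes, only Kitl, Il33 and Ccl5 passed the filter, and Il3, Il5, Il9 and Ccl11 had no read in any library. Ccl5, a ligand of CCR3 among other receptors, had 40, 102 and 156 reads in Sham and 62, 20 and 33 in OVX, with a log2 fold change of -1.46 (SE 0.61, unadjusted p = 0.0459 and adjusted p = 0.811 by edgeR). Of 11 cytokine receptor genes 9 were lower and 2 higher, with a median of -0.29. Csf2rb2, the beta chain of the mouse interleukin-3 receptor, had 139, 217 and 367 reads in Sham and 140, 100 and 186 in OVX, a log2 fold change of -0.93 (SE 0.37, unadjusted p = 0.0403 and adjusted p = 0.811 by edgeR), and the levels of the groups did not overlap. Its paralog Csf2rb is near-identical, so this count is uncertain. None of these receptor or ligand genes was called.

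The 12 genes of signalling from the immunoglobulin E receptor, most of which B cells use as well, were 5 lower and 7 higher, with a median of 0.03 and none called. Syk and Lyn, kinases that act next to the receptor, averaged 1735 ± 149 and 437 ± 41.2 CPM in Sham against 1940 ± 142 and 494 ± 51.1 in OVX (mean ± SD, n = 3). Plcg1, a phospholipase, had the smallest p of its list, with a log2 fold change of 0.24 (SE 0.09, unadjusted p = 0.0281 and adjusted p = 0.811 by edgeR). The list held between 3481 and 3893 RPM, a spread of 1.12-fold. Of 13 transcription factor genes 8 were lower and 5 higher, with a median of -0.19 and none called, and 8 were highest in Sham replicate 3. Cebpa, a factor of granulocyte formation, had 176, 495 and 445 reads in Sham and 227, 123 and 268 in OVX, a log2 fold change of -0.98 (SE 0.40, unadjusted p = 0.0419 and adjusted p = 0.811 by edgeR). Irf8, Zfpm1 and Spi1, which had the highest mean counts of the list, had log2 fold changes of 0.02, 0.26 and -0.05.

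The genes whose log2 CPM was most like that of the members over the 6 libraries were sought among all genes tested. Nearest to the sum of Mcpt8, Prss34, Cpa3, Fcer1a, Ms4a2 and Gata2 were Prtn3, Mefv, Mpo, E230014E18Rik and Elane, with Pearson's r between 0.998 and 0.999. Prtn3, Mpo and Elane encode proteins of the primary granule of neutrophils and their precursors. Prtn3 had 544, 1272 and 3004 reads in Sham and 1092, 198 and 245 in OVX. Nearest to the sum of Prg2, Epx and Ccr3 were Batf3, Nos1ap, Tfec, Clec4a2 and Scarb1, with r between 0.987 and 0.994. This sum mixes genes with different highest libraries. When Prg2 and Epx were summed without Ccr3, after the data were seen, the nearest genes were Tlr5, Ifitm6, Lhfpl2, Trem3 and Mcemp1, with r between 0.996 and 0.999. For Ccr3 alone the nearest were Serpinb6a, Scamp5, Stab2 and Mrap, with r between 0.996 and 0.997. These values are the highest of 15305 genes over the same 6 libraries, and they describe these libraries.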

How the data were processed

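RNA of bone marrow B cells was sequenced in 3 Sham and 3 OVX libraries. A HIF-1α ChIP-seq sample and its input were left out as not analysed here. Raw read counts per Ensembl gene, not normalized, are what the authors deposited. The submitters' processing notes name CASAVA, Bowtie 0.12.2 and mm10, and the counting tool, annotation and strand setting are not given in the sources used here. Symbols were matched to 54409 of 54532 identifiers.

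The tests were run with edgeR 4.0.16 in R 4.3.3 (filterByExpr by group, TMM, quasi-likelihood test, Benjamini-Hochberg adjustment over 15305 genes). Standard errors and 95% intervals come from that fit. CPM are counts scaled to 1000000 per library with TMM factors, and sums over genes are given as RPM, relative to the library's plain total. A two-sided exact permutation test was applied to log2(CPM + 0.1) of each member. Likeness used log2 CPM with a prior count of 2, taking the 5 nearest genes, of which 1 is not reported here. Intervals of shares and ratios are exact (Clopper-Pearson, scipy 1.17.1) and cover counting error only. Limma 3.58.1 (voom) and DESeq2 1.42.0 were alternatives.

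The 9 members and all lists were chosen with earlier results of these data known. The text names the 9 members and, of each other list, up to 3 genes with the highest mean count (at least 10), the gene with the lowest p and any called gene. Other names are genes with no or few reads, genes set against a member, or genes said to be chosen after their values were seen.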

Additional observations from a re-analysis of the deposited data

How the results depend on the processing

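No gene was called under any alternative run, which were DESeq2, limma-voom, library size only, DESeq2's size factors within edgeR, a mean of 10 or more counts as filter, leaving the filter or the fold threshold out, the replicate number as a block, and each library left out in turn. Of 117 fold changes of the 9 genes under these alternatives 114 kept their direction, and 3 of Ccr3 were reversed, at 0.41 when Sham replicate 2 was left out, 0.13 for OVX replicate 1 and 0.11 for OVX replicate 2, in a range from -0.90 to 0.41 over the libraries left out. The cause was not tested. With fewer libraries, between 8 and 9 of the 9 genes were lower in OVX. The number of the 9 genes at an unadjusted p under 0.05 was 2 in the main analysis, 3 with DESeq2, 4 with limma-voom, 1 with library size only, 6 without a filter and 1 with the filter on the mean. It ranged from 0 to 7 with 1 library left out, being 7 without OVX replicate 1, 4 without Sham replicate 1 and 0 without any other. Over all genes the number at an unadjusted p under 0.05 was 574, and 1269 without a filter, with a range from 233 without OVX replicate 2 to 2698 without Sham replicate 1. With the replicate number as a block it was 206, of which 0 were members. The labels do not say whether the numbers pair the libraries. Deviations of same-numbered libraries from their group means correlated at -0.41, -0.19 and -0.28. Such deviations cancel out within a group, so negative values leave different-numbered libraries the more alike on average. Same-numbered libraries thus showed no likeness, but this cannot settle what the numbers stand for. The fit with the block therefore says nothing of a weaker effect. With every denominator and subset tried, the OVX minus Sham difference in the members' summed share moved by less than the spread between replicates. That spread was a pooled SD of 0.0037% of a library's reads. The difference was -0.0054% in the main analysis, -0.0077% without Sham replicate 1 and -0.0023% for the basophil and mast cell members only. For a subset this sets a part against the whole, so it does not show that subsets were alike. The ratio of the OVX mean to the Sham mean was 0.585 for all 9 members. It was 0.661 for Prg2, Epx and Ccr3 and 0.405 for the other 6 members. With 5 to 39 reads of Fcer1a and 7 to 104 of Ms4a2 in a library, counting error limits the values of these 2 genes.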
